A study of Mus musculus with 21 samples.

Results

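The neurotrophin genes of a mouse medulloblastoma line were followed through treatment with a histone deacetylase inhibitor and through knockdown of single deacetylases. The 6 genes are the ligand genes Bdnf and Ntf3, the receptor kinase genes Ntrk2 and Ntrk3, the p75 receptor gene Ngfr and the related gene Nradd. They were taken by symbol from a table of 24047 genes, and all 6 had enough reads to be tested in every comparison. The cells were SMB21, derived from a mouse medulloblastoma, a cerebellar tumour, of the sonic hedgehog (SHH) type. They were grown in DMEM/F12 with B-27. The groups DMSO 2 h and DMSO 24 h received the solvent for the named time, and JNJ 2 h and JNJ 24 h received quisinostat (JNJ), which inhibits histone deacetylases (HDACs). The groups shLuc, shHdac1 and shHdac2 were infected with virus carrying a hairpin (shRNA) against luciferase, Hdac1 or Hdac2 and were all selected with puromycin. Each of these 7 groups has 3 libraries, 21 in all. All come from 1 line, and whether a group's 3 libraries are separate cultures is not stated, so p-values measure only how these libraries spread, which could be technical variation.

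Neurotrophins are secreted as precursors that proteases cleave to the mature growth factor. Mature BDNF binds the receptor kinase TrkB (Ntrk2), and NT-3 (Ntf3) binds mainly TrkC (Ntrk3), after which the Ras-MAPK, PI3K-Akt and phospholipase C pathways carry the signal. All neurotrophins also bind p75 (Ngfr), a death-domain receptor that with sortilin takes up precursors and can signal cell death, and Nradd encodes a membrane protein of similar build. In the cerebellum BDNF and NT-3 act on granule neurons and their progenitors, the cells in which SHH medulloblastoma arises.

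Total counts ran from 23094799 to 39341784 per library, with a median of 31426312. Levels are in CPM, the read count relative to library totals that were scaled over all 21 libraries by the TMM method, which corrects for differences in composition. A count of 3, used as the floor, was 0.0763 to 0.13 CPM. Hdac1 stood at 30.6 ± 2.03 CPM in shHdac1 against 94.8 ± 6.3 CPM in shLuc (mean ± SD, n = 3), and Hdac2 at 50.5 ± 3.36 CPM in shHdac2 against 318 ± 25.2 CPM in shLuc. All 9 granule lineage markers had at least 3 counts in every library, and the summed level of the microglia and leukocyte markers was at most 0.423 CPM. Libraries with replicate number 3 stood apart. In all 7 groups the summed fibroblast and mural markers were lowest in replicate 3. They were 1.65 to 9.14 CPM there, against 3.92 to 25.2 CPM in the others. The summed oligodendrocyte lineage markers were highest in replicate 3 of all 7 groups. In shLuc, shHdac1 and shHdac2 they were 108, 244 and 179 CPM, against 27.6 to 33.3 CPM in the other shRNA libraries. The largest part of these sums was Olig1, at up to 55.8, 215 and 131 CPM in shLuc, shHdac1 and shHdac2. In these groups Olig2 and Sox10, of the same list, were at most 0.407 and 0.0839 CPM. Mog, a marker of mature oligodendrocytes, had no count in shLuc, shHdac1 or shHdac2. shLuc replicate 3 also lay at 56 on the first principal component of the shRNA libraries, against -33.3 and -31.4 for the other shLuc libraries.

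Sequence just upstream of the annotated transcription starts is shown for the genes whose levels are described with JNJ, since promoters are where histone acetylation is best known to act. The windows are 250 bases upstream of a RefSeq start in GRCm38.p6, read 5′ to 3′ on the strand of the gene, while the reads were counted on mm9. RefSeq windows were matched for 5 of the 6 genes. Bdnf has 7 such starts, and only the window with a CRE half-site is printed. Capitals mark 2 motifs, searched on both strands. One is the cyclic-AMP response element (CRE) half-site TGACG, which reads as CGTCA from the opposite strand. The other is the GC box GGGCGG, which reads as CCGCCC from the opposite strand. The window of Bdnf start 3 lies at chr2:109692186-109692435 on the plus strand.
Bdnf start 3: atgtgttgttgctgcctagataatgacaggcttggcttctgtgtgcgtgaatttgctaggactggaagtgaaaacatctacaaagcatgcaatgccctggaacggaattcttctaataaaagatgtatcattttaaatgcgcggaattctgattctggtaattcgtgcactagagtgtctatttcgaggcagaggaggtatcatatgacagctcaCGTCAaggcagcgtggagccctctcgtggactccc
The 2 windows of Ntf3 lie at chr6:126166745-126166994 and chr6:126164961-126165210, both on the minus strand.
Ntf3 start 1: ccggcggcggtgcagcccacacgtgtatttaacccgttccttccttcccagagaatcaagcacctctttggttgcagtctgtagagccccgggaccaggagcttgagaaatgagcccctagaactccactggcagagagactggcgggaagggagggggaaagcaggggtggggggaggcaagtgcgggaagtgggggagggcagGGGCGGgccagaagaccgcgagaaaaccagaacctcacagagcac
Ntf3 start 2: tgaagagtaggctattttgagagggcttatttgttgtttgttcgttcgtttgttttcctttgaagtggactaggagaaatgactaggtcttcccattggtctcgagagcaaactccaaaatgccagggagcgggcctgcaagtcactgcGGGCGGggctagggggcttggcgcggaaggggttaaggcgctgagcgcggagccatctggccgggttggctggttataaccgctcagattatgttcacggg
The window of Ntrk2 lies at chr13:58806319-58806568 on the plus strand, that of Ngfr at chr11:95587699-95587948 and that of Nradd at chr9:110624394-110624643, both on the minus strand.
Ntrk2: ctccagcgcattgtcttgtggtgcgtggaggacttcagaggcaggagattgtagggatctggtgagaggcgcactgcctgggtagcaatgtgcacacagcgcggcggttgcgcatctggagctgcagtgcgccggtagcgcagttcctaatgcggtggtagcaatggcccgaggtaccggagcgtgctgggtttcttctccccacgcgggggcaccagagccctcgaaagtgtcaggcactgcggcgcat
Ngfr: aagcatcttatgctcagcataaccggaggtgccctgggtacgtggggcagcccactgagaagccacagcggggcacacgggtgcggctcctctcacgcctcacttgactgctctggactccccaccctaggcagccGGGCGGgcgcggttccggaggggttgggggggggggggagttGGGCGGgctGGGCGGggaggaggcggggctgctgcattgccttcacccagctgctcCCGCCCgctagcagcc
Nradd: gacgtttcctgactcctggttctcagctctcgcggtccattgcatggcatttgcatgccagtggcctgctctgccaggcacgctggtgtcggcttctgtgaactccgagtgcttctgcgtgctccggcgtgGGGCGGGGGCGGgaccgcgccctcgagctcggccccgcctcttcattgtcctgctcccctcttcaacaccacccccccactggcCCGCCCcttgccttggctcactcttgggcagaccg

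The CRE half-site was present once, in the window of Bdnf start 3, and in none of the other Bdnf, Ntf3, Ntrk2, Ngfr or Nradd windows. It occurs in 17.7% of all 32817 RefSeq windows of this length. GC boxes numbered 4 in the Ngfr window, 3 in that of Nradd and 1 in each Ntf3 window, and there was none in that of Ntrk2. Among the Bdnf starts, start 2 had 2 GC boxes and start 4 had 1. A GC box occurs in 32.7% of all windows. The binding motif of the hedgehog factor GLI, GACCACCCA (TGGGTGGTC on the other strand), was in none of these windows and occurs in 0.225% of all. The Ntrk2 window held 19 CpG dinucleotides, that of Nradd 18, that of Ngfr 16 and those of Ntf3 11 and 14, against a median of 6 over all windows. The 7 Bdnf windows held 1 to 13, with starts 2 (4) and 6 (1) below that median. These letters describe the windows only.

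After 2 h with JNJ both ligand genes rose and none of the 4 receptor genes was called. The calls come from edgeR's quasi-likelihood test over the 12 JNJ and DMSO libraries, with p-values adjusted by Benjamini-Hochberg over 14467 genes and a call at an adjusted p under 0.05. Of the 6 genes 2 were higher and 0 lower, where 13.7% of all tested genes were called (9.11% higher and 4.59% lower). The median log2 change was 0.62 over the 6 genes and 0.03 over all tested genes.

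Bdnf, the TrkB ligand gene, stood at 1.55, 1.84 and 1.96 CPM in the DMSO 2 h libraries and at 15.7, 10.3 and 8.33 CPM in the JNJ 2 h libraries. Every JNJ library lay above every DMSO library, as it did for 25.4% of tested genes in either direction. Bdnf rose 6.44-fold (log2 2.69, SE 0.36, edgeR adjusted p = 8e-04), and it was called in all 16 other settings tried, in which one choice of scaling, filter, test, fitted libraries or left-out library was changed. Reads of the antisense gene Gm45346, which overlaps a Bdnf exon in GENCODE, could be counted as Bdnf if the strand was not used, and the strand setting is not given in the sources used here.

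Ntf3, the TrkC ligand gene, stood at 3.42, 5.81 and 6.83 CPM in DMSO 2 h and at 37.5, 15.2 and 15.8 CPM in JNJ 2 h. The groups did not overlap, but JNJ 2 h replicate 1 held more than the other JNJ 2 h libraries together. The change was 4.29-fold (log2 2.10, SE 0.46, edgeR adjusted p = 0.0108). Leaving out DMSO 2 h replicate 1 (adjusted p = 0.054) or JNJ 2 h replicate 1 (log2 1.53, adjusted p = 0.0551) ended the call.

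**Figure D1:**
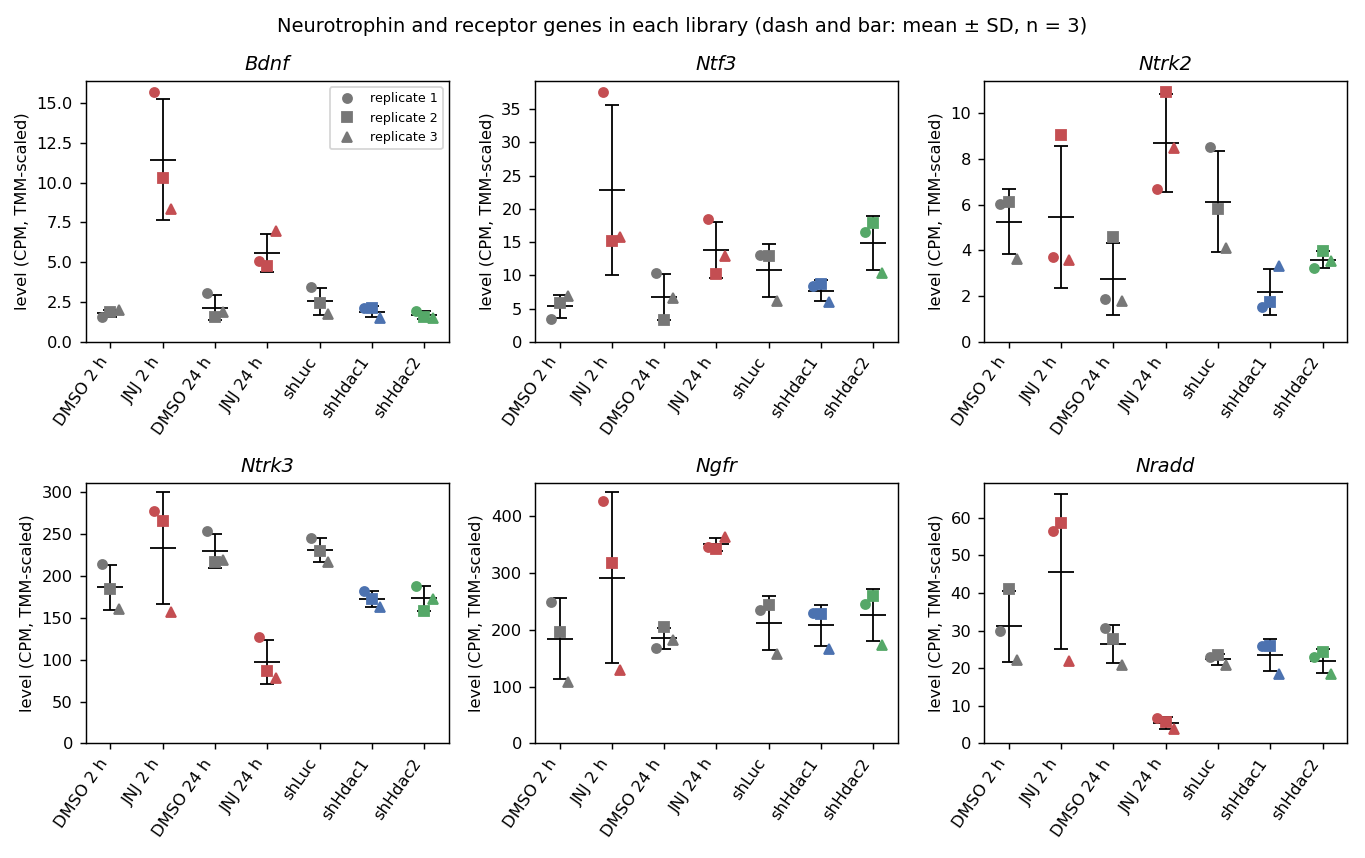
Level of each gene in every library, in CPM on a linear axis starting at 0, with 1 panel per gene and the 7 groups along the horizontal axis. Marker shapes give the replicate number, and dashes with bars give the mean ± SD of 3 libraries. Bdnf is highest in JNJ 2 h (11.4 ± 3.79 CPM), and Nradd is lowest in JNJ 24 h (5.36 ± 1.54 CPM).

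Among the receptor genes at 2 h, Ngfr stood at 248.9, 197 and 108 CPM in DMSO and at 428, 319 and 130.2 CPM in JNJ. The groups overlapped because replicate 3 was low in both. The log2 change was 0.67 (SE 0.36, edgeR adjusted p = 0.24), and each JNJ library lay above the DMSO library of the same number. Without JNJ 2 h replicate 3, Ngfr was called higher (log2 1.03, adjusted p = 0.0191), and so was Nradd (log2 0.90, adjusted p = 0.0435). Over all genes this setting called 3397, against 1982 in the main fit. With all libraries Nradd had a log2 change of 0.56 (adjusted p = 0.327), from 29.9, 41.1 and 22.2 CPM in DMSO to 56.4, 58.5 and 21.8 CPM in JNJ. Replicate 3 again set the overlap. Ntrk3 had a log2 change of 0.33 (adjusted p = 0.385, 95% interval -0.18 to 0.85). Ntrk2 had 6.03, 6.11 and 3.6 CPM in DMSO against 3.73, 9.03 and 3.57 CPM in JNJ, and its log2 change of 0.06 (adjusted p = 0.951, 95% interval -0.93 to 1.05) was below 0 in some settings, such as -0.01 with upper quartile scaling. In the JNJ 2 h libraries the summed granule lineage markers were 905 to 1310 CPM against 1610 to 1720 CPM in DMSO 2 h. The summed astrocyte markers were 277 to 475 CPM against 233 to 283 CPM. Most of this sum was Slc1a3 (350 against 229 CPM), which was not called (log2 0.62, edgeR adjusted p = 0.0674). Gfap and S100b of the same list did not rise (log2 -0.02 and -0.17). The part of the granule lineage and astrocyte markers in the changes of the 6 genes was not tested. In bulk RNA, fewer cells of a type and less RNA per cell cannot be told apart.

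After 24 h with JNJ, Bdnf and Ntrk2 were higher and Ntrk3 and Nradd were lower than in DMSO. These 4 calls among 6 genes, 2 in each direction, compare with 33.1% of all tested genes called (18.1% higher and 15.1% lower). The groups did not overlap for 5 of the 6 genes, all but Ntf3, as for 55.6% of tested genes. The median log2 change was 0.99 over the 6 genes and 0.01 over all tested genes.

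Nradd changed most among the 6 genes at 24 h. It stood at 30.6, 27.9 and 20.9 CPM in DMSO 24 h and at 6.76, 5.61 and 3.71 CPM in JNJ 24 h. The JNJ 24 h libraries were the 3 lowest of all 21 libraries. The log2 change was -2.29 (SE 0.38, edgeR adjusted p = 0.000815), and it stayed between -2.49 and -2.08 in 17 other settings, each with a call. The change at 24 h was lower than that at 2 h by a log2 of -2.85 (SE 0.52, adjusted p = 0.0147), a difference called for 4.24% of all tested genes (2.51% higher and 1.73% lower).

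Ntrk3, the TrkC receptor gene, stood at 253, 217 and 219 CPM in DMSO 24 h and at 127, 86.4 and 78 CPM in JNJ 24 h. The groups did not overlap. Ntrk3 was lower by a log2 of -1.23 (SE 0.24, edgeR adjusted p = 0.00216), with a call in all 17 other settings. The gene Gm39038 touches a Ntrk3 exon on the same strand in GENCODE, so its reads could be counted as Ntrk3 under any strand setting. The difference from the 2 h effect was -1.56 (SE 0.34, adjusted p = 0.025). It was no longer called after leaving out DMSO 2 h replicate 2 (adjusted p = 0.066), JNJ 2 h replicate 2 (0.0545), DMSO 24 h replicate 1 (0.0706), DMSO 24 h replicate 3 (0.0571), JNJ 24 h replicate 2 (0.0673) or JNJ 24 h replicate 3 (0.0762), and with scaling by library totals (0.0527).

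Ntrk2, the TrkB receptor gene, stood at 1.86, 4.58 and 1.79 CPM in DMSO 24 h and at 6.68, 10.9 and 8.47 CPM in JNJ 24 h. The groups did not overlap, with DMSO 24 h replicate 2 nearest to the JNJ libraries. Ntrk2 rose 3.17-fold (log2 1.67, SE 0.47, edgeR adjusted p = 0.0164). It was no longer called after leaving out DMSO 24 h replicate 1 (adjusted p = 0.0667), DMSO 24 h replicate 3 (0.0652) or JNJ 24 h replicate 2 (0.0575). The antisense gene 4930415C11Rik overlaps a Ntrk2 exon, so the limit named for Bdnf holds here too. The difference from the 2 h effect, a log2 of 1.61, was not called (adjusted p = 0.173), but was with a replicate block (1.85, adjusted p = 0.0155). Over all genes the block called 2132 such differences, against 614 without it.

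Bdnf stood at 3.03, 1.54 and 1.85 CPM in DMSO 24 h and at 5.07, 4.76 and 6.95 CPM in JNJ 24 h. The groups did not overlap. Bdnf rose 2.63-fold (log2 1.39, SE 0.35, edgeR adjusted p = 0.00811), with a call in all 17 other settings. Its change at 24 h minus that at 2 h was a log2 of -1.29 (adjusted p = 0.139), which was not called in any of 21 other settings.

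Ngfr and Ntf3 lay just outside the threshold at 24 h. Ngfr stood at 168, 205 and 182 CPM in DMSO 24 h and at 346, 343 and 364 CPM in JNJ 24 h. Every JNJ library was higher than every DMSO library, and the JNJ libraries lay close together. The log2 change was 0.93 (SE 0.36, edgeR adjusted p = 0.0664). Same-numbered libraries deviated together at 24 h, and with the replicate number as a block Ngfr was called higher (0.94, adjusted p = 0.0215). Ntf3 stood at 10.3, 3.33 and 6.62 CPM in DMSO 24 h and at 18.5, 10.1 and 12.9 CPM in JNJ 24 h, and DMSO 24 h replicate 1 lay above JNJ 24 h replicate 2. Its log2 change was 1.05 (SE 0.45, adjusted p = 0.0922), and 1.11 with the block (adjusted p = 0.0275). A block in a fit of the compared groups only also called Ngfr and Ntf3 (adjusted p = 0.000187 and 0.00148). Over all genes that fit called 8948, against 4791 in the main fit. Without DMSO 24 h replicate 1, Ntf3 was called too (1.49, adjusted p = 0.0429). Within each of the 3 pairs of same-numbered libraries, Bdnf, Ntf3, Ntrk2 and Ngfr were higher with JNJ and Ntrk3 and Nradd lower.

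**Figure D2:**
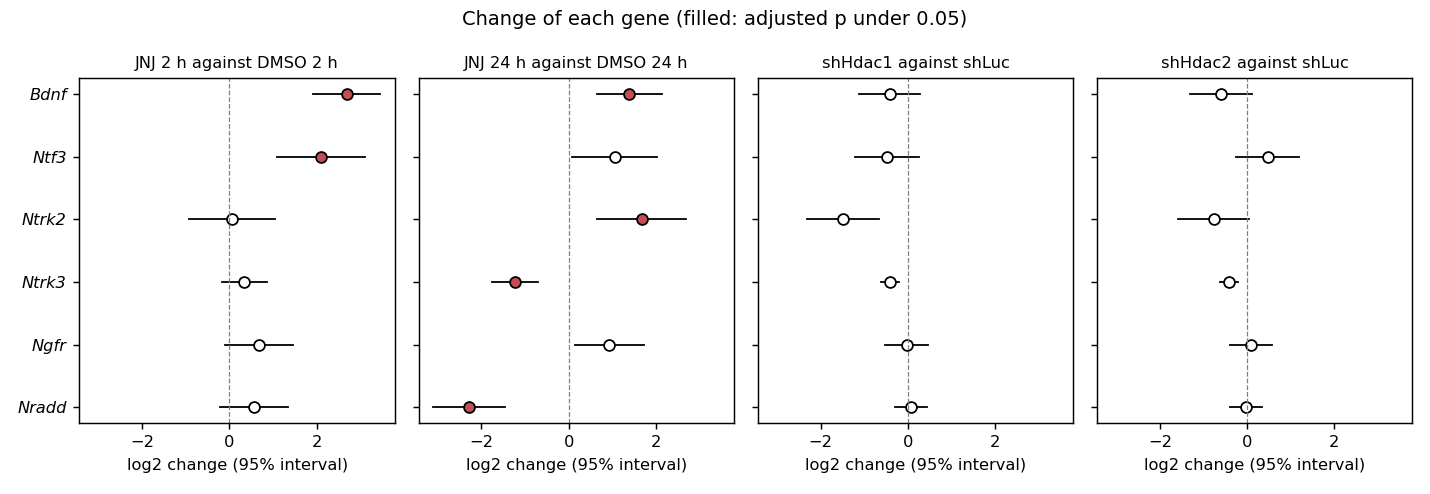
Log2 change of the 6 genes in 4 comparisons (points) with 95% intervals (lines); filled points have an adjusted p under 0.05. Bdnf is filled in both JNJ panels (2.69 at 2 h, 1.39 at 24 h), and no point is filled in either knockdown panel.

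Markers of the granule lineage and of other cell types also changed at 24 h. Of the 9 granule lineage markers 4 were lower, among them Atoh1 (log2 -1.08, edgeR adjusted p = 0.00161) and Barhl1 (log2 -1.62, adjusted p = 0.00183), and 1 was higher, Cntn2 (log2 1.22, adjusted p = 0.0219). Their sum was 1260 to 1700 CPM in JNJ 24 h against 1660 to 1810 CPM in DMSO 24 h. The summed astrocyte markers were 106 to 140 CPM in JNJ 24 h against 219 to 300 CPM in DMSO 24 h, and most of this sum was Slc1a3 (115 against 229 CPM). At least 3 counts in each of these libraries were reached by 4 of the 6 astrocyte markers. The summed fibroblast and mural markers were 9.14 to 25.2 CPM against 3.35 to 6.17 CPM, and most of this sum in JNJ was the collagen gene Col1a1 (17.3 CPM). Of the same list Col1a1 was higher (log2 4.32, adjusted p = 0.00103) and Col3a1 lower (log2 -2.08, adjusted p = 0.00951), while Pdgfrb was not called. Of the endothelial markers, Kdr rose from 0.167 ± 0.128 CPM, with 3 to 11 counts per library, to 2.49 ± 0.727 CPM (log2 3.88, adjusted p = 0.000442). Cdh5 (log2 -1.38, adjusted p = 0.473) and Pecam1 (log2 0.45, adjusted p = 0.556) were not called, and Cldn5 was at 0 in every group. The summed endothelial markers overlapped, at 3.53 to 4.92 CPM in JNJ 24 h and 0.596 to 9.75 CPM in DMSO 24 h. The part of these markers in the changes of Bdnf, Ntf3, Ntrk2, Ntrk3, Ngfr and Nradd was not tested.

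Ntf5, which encodes the other TrkB ligand and is not among the 6 genes, had 27 to 35 counts in the JNJ 2 h libraries against 8 to 24 with DMSO, and 26 to 29 counts in the JNJ 24 h libraries against 5 to 26 with DMSO. Its log2 change was 1.17 at 2 h (edgeR adjusted p = 0.211) and 1.42 at 24 h (adjusted p = 0.0886), or 1.62 with the block at 24 h (adjusted p = 0.0215). Between the DMSO groups edgeR called 0 of 14467 genes (1417 at an unadjusted p under 0.05), DESeq2 called 16 and limma voom 2. None of the 6 neurotrophin genes was called between DMSO 24 h and DMSO 2 h, also at an unadjusted p under 0.05.

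Of 130 further genes of the pathway in 7 lists, 124 were tested in the JNJ and DMSO libraries. At 2 h 15 were higher and 4 lower, which is 15.3% of those tested, and at 24 h 21 were higher and 13 lower, which is 27.4%. The shares over all genes were 13.7% and 33.1%. The median log2 change of the lists together was 0.20 at 2 h and 0.05 at 24 h, against 0.03 and 0.01 over all genes.

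**Figure D3:**
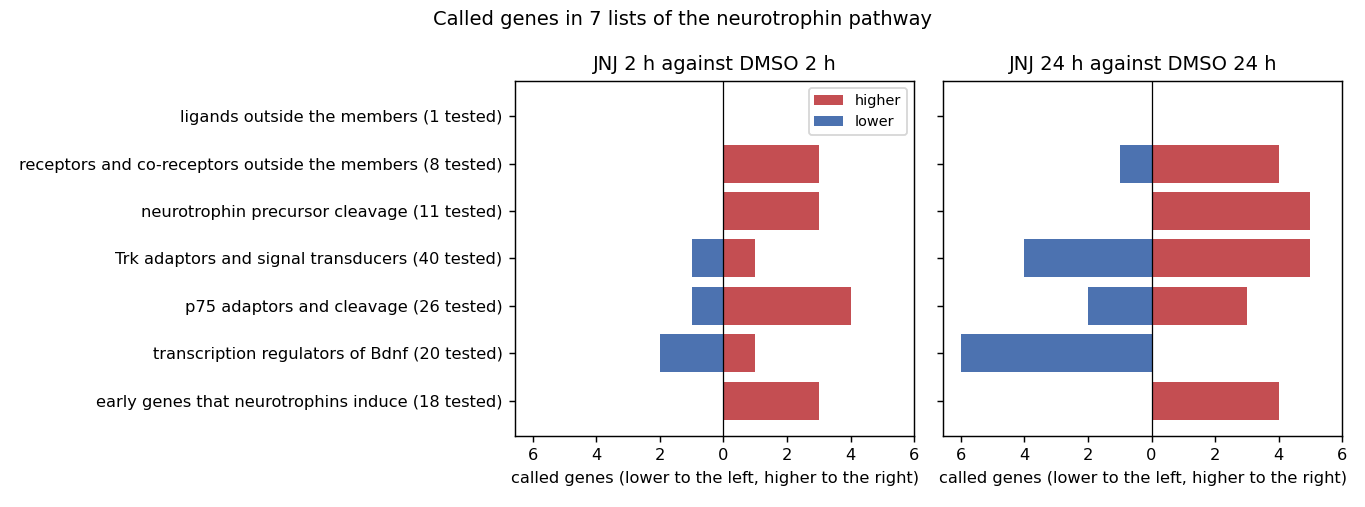
Number of genes called lower (to the left of 0) and higher (to the right) in each of 7 lists with JNJ at 2 h and at 24 h; the number tested stands beside each list name. Genes of precursor cleavage are called higher only (3 and 5 of 11), and transcription regulators of Bdnf at 24 h lower only (6 of 20). Of all tested genes 13.7% are called at 2 h and 33.1% at 24 h.

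Among receptors and co-receptors other than the 6 genes, 3 of 8 were higher and 0 lower at 2 h, and 4 were higher and 1 lower at 24 h. This was 37.5% and 62.5% of those tested, against 13.7% and 33.1% of all genes. At 2 h Rtn4r, the Nogo receptor gene whose product pairs with p75, rose from 21 ± 1.87 to 58.2 ± 25.8 CPM (log2 1.48, adjusted p = 0.00462). Sort1, which encodes sortilin, rose from 93.9 ± 9.43 to 181 ± 40.8 CPM (log2 0.95, adjusted p = 0.00522). Kidins220, a scaffold gene of Trk signalling, rose at 24 h from 147 ± 23.2 to 338 ± 36.1 CPM (log2 1.21, SE 0.24, adjusted p = 0.00214). These calls held with each library left out in turn, while that of Sort1 was lost with only the compared groups in the fit (adjusted p = 0.0529). The Sorcs2 call at 24 h (log2 0.85, adjusted p = 0.0211) was lost without DMSO 24 h replicate 1 (0.0926) or JNJ 24 h replicate 3 (0.103).

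Genes of neurotrophin precursor cleavage were called in 1 direction, with 3 of 11 higher at 2 h and 5 of 11 at 24 h. This was 27.3% and 45.5% of those tested, against 13.7% and 33.1% of all genes. Plat, the tissue plasminogen activator gene, whose product activates the plasmin that cleaves pro-BDNF, rose from 4.41 ± 1.52 to 37.2 ± 22.3 CPM at 2 h (log2 3.08, SE 0.41, adjusted p = 0.000791). At 24 h it rose from 2.19 ± 0.397 to 26.8 ± 1.85 CPM (log2 3.62, SE 0.42, adjusted p = 0.000115). Its inhibitor gene Serpini1, which encodes neuroserpin, rose at 24 h from 6.85 ± 2.7 to 25.9 ± 6.77 CPM (log2 1.93, adjusted p = 0.0013). The metalloprotease gene Mmp9 went from 0.107 ± 0.0756 to 2.55 ± 0.588 CPM at 24 h (log2 4.52, SE 0.71, adjusted p = 0.000578). A protease and its inhibitor thus moved the same way in this list. At 2 h Serpini1 was no longer called after leaving out DMSO 2 h replicate 1 (adjusted p = 0.0523), DMSO 2 h replicate 2 (0.0821) or JNJ 2 h replicate 1 (0.0844), nor was the convertase gene Pcsk7 after leaving out DMSO 2 h replicate 2 (0.0535) or JNJ 2 h replicate 1 (0.0543).

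Genes of the intracellular pathways were called in both directions. Of 40 Trk adaptors and signal transducers, 1 was higher and 1 lower at 2 h, and 5 were higher and 4 lower at 24 h (22.5% of those tested, against 33.1% of all genes). The adaptor gene Sh2b2 rose at 2 h from 15.3 ± 4.77 to 42.2 ± 8.62 CPM (log2 1.47, adjusted p = 0.00212). At 24 h Rps6ka1, which encodes the kinase RSK1 downstream of ERK, rose from 51 ± 11.3 to 200 ± 25.5 CPM (log2 1.98, SE 0.20, adjusted p = 6.34e-05). The adaptor gene Gab2 rose from 7.63 ± 0.681 to 20.1 ± 3.73 CPM (log2 1.40, adjusted p = 0.00122). Nras fell from 163 ± 5.8 to 93.2 ± 3.04 CPM (log2 -0.79, adjusted p = 0.00196). Of 26 genes of p75 adaptors and cleavage, 4 were higher and 1 lower at 2 h, and 3 were higher and 2 lower at 24 h (19.2% of those tested at each time, against 13.7% and 33.1% of all genes). The caspase gene Casp9 rose at both times (log2 1.02 and 0.92, adjusted p = 0.00158 and 0.000972). At 24 h Irak1, a kinase gene of NF-κB signalling, fell from 87.4 ± 10.3 to 21.9 ± 6.15 CPM (log2 -1.98, adjusted p = 0.00022), and Sall2, whose product binds p75, fell from 105 ± 13.7 to 36.3 ± 4.9 CPM (log2 -1.52, adjusted p = 0.000235).

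Transcription regulators known to act on Bdnf included 1 higher and 2 lower of 20 at 2 h, and 0 higher and 6 lower at 24 h. The shares called, 15% and 30%, were near the 13.7% and 33.1% of all genes. At 24 h Nfkb1 fell from 34.3 ± 0.879 to 13.3 ± 1.96 CPM (log2 -1.35, adjusted p = 0.000308), and the coactivator gene Crebbp from 72.3 ± 9.4 to 46.1 ± 2.45 CPM (log2 -0.64, adjusted p = 0.00682). Rest, the repressor gene of neuronal genes, was not called at 2 h (log2 0.23, adjusted p = 0.619) or 24 h (log2 -0.40, adjusted p = 0.286). Of 18 early genes that neurotrophins induce, 3 were higher and 0 lower at 2 h, and 4 were higher and 0 lower at 24 h. This was 16.7% and 22.2% of those tested, against 13.7% and 33.1% of all genes. Vgf, a neuropeptide precursor gene, went from 7.15 ± 3.46 to 52.2 ± 24.8 CPM at 2 h and from 3.78 ± 0.333 to 68.6 ± 29.5 CPM at 24 h. The calls of Junb (log2 1.48) and Arc (1.26) at 24 h (adjusted p = 0.0363 and 0.0321) were less firm. That of Junb was lost without any 1 of the 6 libraries (adjusted p = 0.064 to 0.108), and that of Arc without DMSO 24 h replicates 2 or 3 or JNJ 24 h replicates 1 or 2 (0.0685 to 0.114).

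In the knockdowns none of the 6 genes was called. The test over the 9 shRNA libraries covered 13612 genes, of which 0.749% were called in shHdac1 against shLuc (0.154% higher and 0.595% lower) and 1.68% in shHdac2 against shLuc (0.654% higher). Of the 6 genes Ntrk3 had the lowest p in both. It stood at 245, 230.4 and 217 CPM in shLuc, at 182, 173 and 164 CPM in shHdac1 and at 188, 159 and 173 CPM in shHdac2. All 6 knockdown libraries lay below all shLuc libraries. Groups did not overlap for 16.5% of tested genes in shHdac1 and 21.2% in shHdac2. The log2 changes were -0.42 (SE 0.09, edgeR adjusted p = 0.085) and -0.41 (SE 0.09, adjusted p = 0.0606). The shRNA libraries of the same number deviated together, but so did replicates 1 and 2 of different groups (correlations of 0.238 to 0.577). Only replicate 3 was thus set apart by its number. With a replicate block Ntrk3 was called lower in both (adjusted p = 0.021 and 0.0186), among 523 and 801 genes called. With a block in a fit of the compared groups only, Ntrk3 was called in neither (0.188 and 0.103). That fit called 0 genes in shHdac1, not even Hdac1 (log2 -1.63, adjusted p = 0.122), and 48 in shHdac2. By DESeq2 Ntrk3 was called lower in both (adjusted p = 0.00197 and 0.0017), among 561 and 819 genes called. Without shLuc replicate 3 Ntrk3 was called in both (log2 -0.47 and -0.45, adjusted p = 0.0177 and 0.0212), among 1467 and 1196 genes called. Both comparisons share the shLuc libraries, so they are not independent.

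Ntrk2 stood at 8.5, 5.8 and 4.08 CPM in shLuc, at 1.5, 1.72 and 3.33 CPM in shHdac1 and at 3.25, 3.98 and 3.54 CPM in shHdac2. All knockdown libraries again lay below all shLuc libraries, with replicate 3 of shLuc and shHdac1 nearest to each other. The log2 change was -1.49 in shHdac1 (SE 0.37, edgeR adjusted p = 0.123, 95% interval -2.32 to -0.66) and -0.77 in shHdac2 (SE 0.36, adjusted p = 0.34). In shHdac1, Ntrk2 was called by DESeq2 (adjusted p = 0.00478) and without shLuc replicate 3 (log2 -1.71, adjusted p = 0.0228). Over all genes these settings called 561 and 1467, against 102 in the main fit. In these libraries the summed granule lineage markers were 1560 to 1800 CPM in shLuc, 1240 to 1280 CPM in shHdac1 and 1330 to 1430 CPM in shHdac2. Their part in the values of Ntrk2 and Ntrk3 was not tested.

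For Ntf3 the means of the 2 knockdowns lay on either side of the control, but the libraries of both overlapped with shLuc. Ntf3 was at 13.1, 12.9 and 6.16 CPM in shLuc, at 8.39, 8.73 and 5.91 CPM in shHdac1 and at 16.5, 17.9 and 10.3 CPM in shHdac2. The knockdown groups did not overlap with each other, as for 26.5% of tested genes. shHdac1 was lower than shHdac2 by a log2 of -0.96 (SE 0.33, edgeR adjusted p = 0.204), in a comparison with 2.06% of genes called (0.889% higher). With a replicate block the difference was called (-0.93, adjusted p = 0.0109), and it was also called with a block in these groups only (-0.95, adjusted p = 9.39e-05). Over all genes these settings called 886 and 4086, against 280 without a block. Against shLuc, the log2 change of Ntf3 was -0.48 in shHdac1 (adjusted p = 0.641) and 0.47 in shHdac2 (adjusted p = 0.53). For Bdnf the 95% interval was -1.12 to 0.28 in shHdac1 and -1.31 to 0.10 in shHdac2, so that neither reached the change of Bdnf with JNJ, a log2 of 2.69 at 2 h and 1.39 at 24 h. For Ngfr and Nradd the log2 changes in both knockdowns lay between -0.03 and 0.09, and for neither did the intervals pass -0.52 or 0.57.

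Of 121 pathway genes tested in the knockdowns, 0 were higher and 1 lower in shHdac1, and 1 was higher and 3 lower in shHdac2. This was 0.826% and 3.31% of those tested, against 0.749% and 1.68% of all genes. Crtc1, a coactivator gene of CREB, was lower in shHdac1 (46.7 ± 2.26 against 66.5 ± 1.84 CPM, log2 -0.51, adjusted p = 0.0377). In shHdac2 Sort1 was lower (78.8 ± 1.66 against 119 ± 11.4 CPM, log2 -0.59, adjusted p = 0.0211), as was its relative Sorcs3 (21.5 ± 1.8 against 38 ± 6.59 CPM, log2 -0.83, adjusted p = 0.0373). The calls of Crtc1, Sort1 and Sorcs3 were each lost without any 1 of 5 of the 6 libraries compared, all but shLuc replicate 3, with adjusted p up to 0.2, 0.125 and 0.186. Sos2, a Ras activator gene, was also lower in shHdac2 (log2 -0.57, adjusted p = 0.0436), and its call ended without any 1 library but shLuc replicate 3 (0.0701 to 0.2).

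Over the 7 groups the order of mean levels differed between genes. Bdnf was highest in JNJ 2 h (11.4 CPM), then in JNJ 24 h (5.59 CPM), and these stood apart from each other and from shLuc (2.53 CPM). From shLuc down to shHdac2 (1.66 CPM), neighbouring groups of Bdnf differed by less than their spread. Nradd was lowest in JNJ 24 h (5.36 CPM), apart from shHdac2 (21.9 CPM), and the other 6 groups ran from 21.9 to 45.6 CPM with no neighbours apart. Ntrk3 was lowest in JNJ 24 h (97.1 CPM), apart from the next group, shHdac1 (173 CPM). DMSO 24 h (230 CPM) stood apart from DMSO 2 h (187 CPM) by this rule, but the difference was not called (log2 0.31, edgeR adjusted p = 0.626). These DMSO groups did not overlap for 17.4% of tested genes. For Ntf3, Ntrk2 and Ngfr no neighbours in the order were apart. Their means ran from 5.35 CPM in DMSO 2 h to 22.8 CPM in JNJ 2 h for Ntf3, from 2.18 CPM in shHdac1 to 8.69 CPM in JNJ 24 h for Ntrk2, and from 185 CPM in both DMSO groups to 351 CPM in JNJ 24 h for Ngfr.

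The replicate number went with some of these levels. Replicate 3 was the lowest library of its group for Nradd in 7 of 7 groups and for Ntrk3 and Ngfr in 5. Replicate 1 was the highest library for Ntrk3 in 7 of 7 groups. In the same replicate 3 libraries the summed oligodendrocyte markers were highest and the summed fibroblast and mural markers lowest of each group. The part of either in the levels of Nradd, Ntrk3 and Ngfr was not tested.

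Other genes with like profiles over the 12 JNJ and DMSO libraries were found by the root mean square difference of centred log2 CPM, among 11908 genes at 1 CPM or more on average. Nearest to Ntrk3 were Mob3b (0.17), Mfsd10 (0.17) and Frmd4b (0.18), against a median of 0.68 over all candidates. Nearest to Ngfr were Podxl (0.19), Cecr6 (0.21) and Igf2r (0.21), against a median of 0.77. For Bdnf the nearest were B3gnt1 (0.27), Gpr155 (0.29) and the tumour necrosis factor receptor gene Tnfrsf1a (0.32), against a median of 1.19. Tnfrsf1a was also among the nearest to Ntf3 (0.33), with Lefty1 (0.32) and Pou3f1 (0.33), where the median was 1.07. Nearest to Ntrk2 were Ptrf (0.26), Tspo (0.29) and Slc8a3 (0.29), against a median of 0.92. Nearest to Nradd were Tmc6 (0.32), Ramp2 (0.36) and Cdc6 (0.41), against a median of 1.26. These values describe the same 12 libraries as the tests and carry no p-value.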

How the data were processed

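RNA-seq of 21 SMB21 libraries was compared. The authors deposited raw counts of reads per gene from STAR 2.5.1b on mm9, per the submitters' processing notes. The annotation, the strand setting and the handling of reads with several matches are not stated there. Libraries were stranded mRNA, per the labels' protocols.

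The table held 24047 genes, 4115 of them without a count. Genes were kept by edgeR's filterByExpr (minimum count 10, minimum total 15). Counts were scaled by TMM and tested two-sided with edgeR 4.0.16 (quasi-likelihood) in R 4.3.3, in 2 fits, 1 of the 12 libraries with JNJ or DMSO and 1 of the 9 with hairpins, with group as the only term. The Benjamini-Hochberg adjustment covered every tested gene, and the threshold was 0.05. The scripts were tested on simulated data. Alternatives used other scalings, no filter, DESeq2 1.42.0, limma 3.58.1 (voom), other sets of fitted libraries, a replicate block, and each library left out in turn.

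Same-numbered libraries deviated together at 24 h (correlations of 0.568, 0.656 and 0.610) and in the shRNA groups (0.244 to 0.795). In the shRNA groups replicates 1 and 2 of unlike number also did so (0.238 to 0.577), so only replicate 3 stood apart by number. At 2 h, 1 same-numbered pair did not deviate together (-0.001, 0.652 and 0.586). Named were all 6 genes, Ntf5, Rest, Hdac1, Hdac2, up to 3 called genes of lowest p per pathway list in each comparison, and the 3 genes of nearest profile. Some genes that this rule would name are not reported here. The marker genes given by name were added after their values were seen. Profile likeness used edgeR's log2 CPM with a prior of 2 counts (not 2 CPM) added on average, also at a minimum of 5 CPM. Neighbouring groups were called apart when libraries did not overlap and means differed by more than the larger SD. The genes, lists and tests were chosen with earlier results of these data known. No per-length levels were made, so levels are not compared between genes. Counts carry counting error only where no replicate spread is given.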

Additional observations from a re-analysis of the deposited data

Results flagged for a closer look

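The effect of JNJ differed between 24 h and 2 h for 4 of the genes described, by edgeR's test of the difference itself. That test called 4.24% of all tested genes and 2.42% of the 124 further pathway genes tested. Rps6ka1 and Irak1 were named from the pathway lists for their low p in it. For Nradd the log2 effect at 24 h minus that at 2 h was -2.85 (adjusted p = 0.0147), and it was called in all 21 other settings. For Ntrk3 the difference was -1.56 (adjusted p = 0.025). Its call was lost in 6 of 12 fits with 1 library left out (0.0545 to 0.0762) and with scaling by library totals (0.0527). Rps6ka1, the RSK1 kinase gene, had a difference of 1.42 (adjusted p = 0.0186), which was not called without DMSO 24 h replicate 1 (0.0509) or JNJ 24 h replicate 3 (0.0587). Irak1, a kinase gene of NF-κB signalling, had a difference of -1.69 (adjusted p = 0.023), and its call was lost in 6 of 12 fits with 1 library left out (0.0534 to 0.0662). The cause of these differences was not tested.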

How the results depend on the processing

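At 24 h the calls of Bdnf, Ntrk3 and Nradd, and at 2 h that of Bdnf, held in every setting tried. The number of genes called over the whole table depended more on the setting. At 2 h (1982 genes) it was 3455 with a replicate block, 650 with the compared groups alone and 3185 with all 21 libraries in one fit. At 24 h (4791) it was 8948 with a block and the compared groups alone. For the difference of times (614) it was 1503 with DESeq2, 2132 with a block and 1722 with all 21 libraries. Between the DMSO groups (0) it was 2 with no filter, 16 with DESeq2, 2 with limma voom and 108 with a block. For shHdac1 (102) it was 561 with DESeq2, 523 with a block, 5 with the compared groups alone, 0 with a block and these alone, and 8 with all 21 libraries. For shHdac2 (229) the same settings gave 819, 801, 19, 48 and 27, and for shHdac1 against shHdac2 (280) 842, 886, 603, 4086 and 76. With 1 library left out, the counts ran from 1055 (without JNJ 2 h replicate 1) to 3397 (without JNJ 2 h replicate 3) at 2 h, from 142 to 1151 in the difference of times, from 0 to 48 between the DMSO groups and from 33 to 272 between the knockdowns. They ran from 2 to 1467 in shHdac1 and from 11 to 1196 in shHdac2, both highest without shLuc replicate 3.

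Of the 6 genes, the number called in the difference of times (2) was 1 by library totals and 3 with a block. In shHdac1 (0) it was 2 with DESeq2 and 1 with a block, and in shHdac2 (0) 1 with each. Between the knockdowns (0) it was 1 with a block and 2 with a block and these groups alone. At 24 h (4) the block called all 6. The number of all genes called with that block at 24 h is not given here, so these 6 calls have no share beside them. With 1 library left out it was 1 to 4 at 2 h, 3 to 4 at 24 h, 1 to 2 in the difference of times, 0 to 2 in shHdac1 and 0 to 1 in shHdac2.

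The sign changed, with no call, for Ntrk2 at 2 h (-0.01 with upper quartile scaling, -0.08 with limma voom, -0.06 with a block, and -0.53 to 0.29 with 1 library left out). Leaving out 1 library also changed the sign of uncalled values. Between the DMSO groups these were Bdnf (-0.06 to 0.47), Ngfr (-0.26 to 0.30), Nradd (-0.41 to 0.04) and Ntf3 (-0.09 to 0.68), and in the difference of times Ngfr (-0.10 to 0.64). Ngfr and Nradd ran from -0.22 to 0.09 and -0.01 to 0.20 in shHdac1, from -0.08 to 0.24 and -0.11 to 0.08 in shHdac2, and from -0.29 to 0.01 and -0.03 to 0.23 between the knockdowns, where Ntrk3 ran from -0.07 to 0.05.

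Ngfr in JNJ 24 h was 397 CPM on library totals against 351 CPM. The median of all genes at 24 h was 0.01 with TMM, 0.12 with upper quartile scaling and 0.17 by library totals. Of all calls, 66.5% were higher at 2 h (54.5% with upper quartile scaling), 54.5% at 24 h (63.8% with upper quartile scaling and 68.3% by library totals) and 59.1% in the difference of times (81.8% and 79.9%). The cause of these shifts was not tested.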
